A study of Mus musculus with 7 samples.

Results

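The 10 genes described here, Cd79a, Cd79b, Pax5, Ebf1, Vpreb1, Vpreb3, Igll1, Mzb1, Cd72 and Blnk, belong to the early B lymphocyte lineage. Every array probe whose transcript accession matched one of them was taken, which gave 12 of the 55681 probes and 10 of the 20018 named genes on the array, with a pair of probes each for Pax5 and Cd72. Of these, 10 probes of 9 genes were bright enough to be tested. The samples were dendritic cells cultured from mouse common myeloid progenitors, and each of 7 was read on its own one-colour microarray. The 3 arrays labelled knockout came from C57BL/6 mice carrying a floxed Gata2 gene together with ER-Cre, a Cre recombinase that acts once tamoxifen is given, and the 4 control arrays from mice carrying the floxed gene alone. Both genotypes received tamoxifen between day 1 and day 10, and progenitors were sorted on days 20 to 22. They were cultured with FLT3 ligand at 200 ng/ml on bone marrow feeder cells of SJL mice. The source name of the knockout samples, G2KD, is not explained. The labels do not state how the dendritic cells were parted from the feeder cells. They also do not say that replicates were separate animals, so the p-values speak only of how these arrays varied.

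B lymphocytes arise from lymphoid progenitors under the transcription factors Ebf1 and Pax5, which switch on the genes of the antigen receptor and its signalling chains. Before a light chain is made, the heavy chain pairs with a surrogate light chain of Vpreb1 and Igll1, and this pre-B cell receptor signals through Cd79a and Cd79b to the kinase Syk and the adaptor Blnk. Mzb1 is a chaperone of the endoplasmic reticulum that assists antibody assembly, and Cd72 is an inhibitory surface lectin of B cells. Several of these genes are not confined to B cells: plasmacytoid dendritic cells, which share the factor Tcf4 with lymphocytes, are known to express Mzb1, and macrophages to express Blnk.

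The single probe of Gata2, the targeted gene, read 7.08-fold brighter on the arrays labelled knockout (limma adjusted p = 0.000416), and the labels do not say whether the deletion covers this probe. Directions below are therefore those of the arrays as labelled. Each group lay in a slide row of its own. Only the knockout group carried the Cre, so neither row nor Cre can be told apart from group. Negative control spots were dimmer by 1.19 on the log2 scale on the arrays labelled knockout (-8.78 ± 0.41, SD, n = 3, against -7.59 ± 0.14 on the controls, SD, n = 4). The share of spots well above background ran from 61.5% to 67.4% for the arrays labelled knockout, against 54.1% to 56.9% for the controls. The part of these shifts in the results for dim probes was not tested. All levels are log2 of the processed signal minus the array's 75th percentile, so 0 marks the 75th percentile of that array, and levels of different probes are not comparable.

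Mzb1 and Cd72 were called higher in the arrays labelled knockout, and no tested member was called lower. Of the 10 tested probes, 3 were higher at an adjusted p under 0.05, namely the Mzb1 probe and both Cd72 probes, against 0.838% of all 34130 tested probes higher and 1.36% called in either direction. None was lower by limma at an adjusted p under 0.05, against 0.522% of all tested probes, so 0 of 10 is near that share. At an unadjusted p under 0.05, 4 of the 10 passed, Vpreb1 being the one added, against 10.6% of all tested probes in either direction. Of the 10, 0 were lower at that unadjusted threshold. For these same 4 probes every array labelled knockout lay above every control, which held for 5.25% of all tested probes, and 0 lay below every control, which held for 5.9%. The log2 difference was above 0 for 8 of the 10, against 45.9% of all tested probes. Among the 8, the differences of Cd79a, Pax5 and Vpreb3 turned to -0.12, -0.034 and -0.004 with normexp background correction. Cd79b turned the other way, to 0.008, with quantile normalization. The tested Pax5 probe was too dim to count on any control. The count of signs thus rests in part on signal near background, and no lean of the members is read from it. Fewer cells of a type and less RNA per cell cannot be told apart in these bulk samples.

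Detection of the members also differed between the groups, as did the level at which a signal counted. The dimmest signal well above background was -6.65 ± 0.38 (SD, n = 3) on the arrays labelled knockout, against -5.51 ± 0.13 (SD, n = 4) on the controls. Cd79a, for example, counted at -5.54 on replicate 3 labelled knockout and did not count at -5.45 on control replicate 1. The part of this in the counts of detected members was not tested. On the arrays labelled knockout, 11, 10 and 11 of the 12 member probes were well above background on replicates 1, 2 and 3, against 7, 9, 8 and 7 on control replicates 1 to 4. Across all probes of the array the share was 60.8% to 66.9% on the arrays labelled knockout and 53.3% to 56.2% on the controls. Of the tested probes, 6 were well above background on all 7 arrays: those of Cd79b, Vpreb1, Mzb1 and Blnk and both of Cd72.

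**Figure D1:**
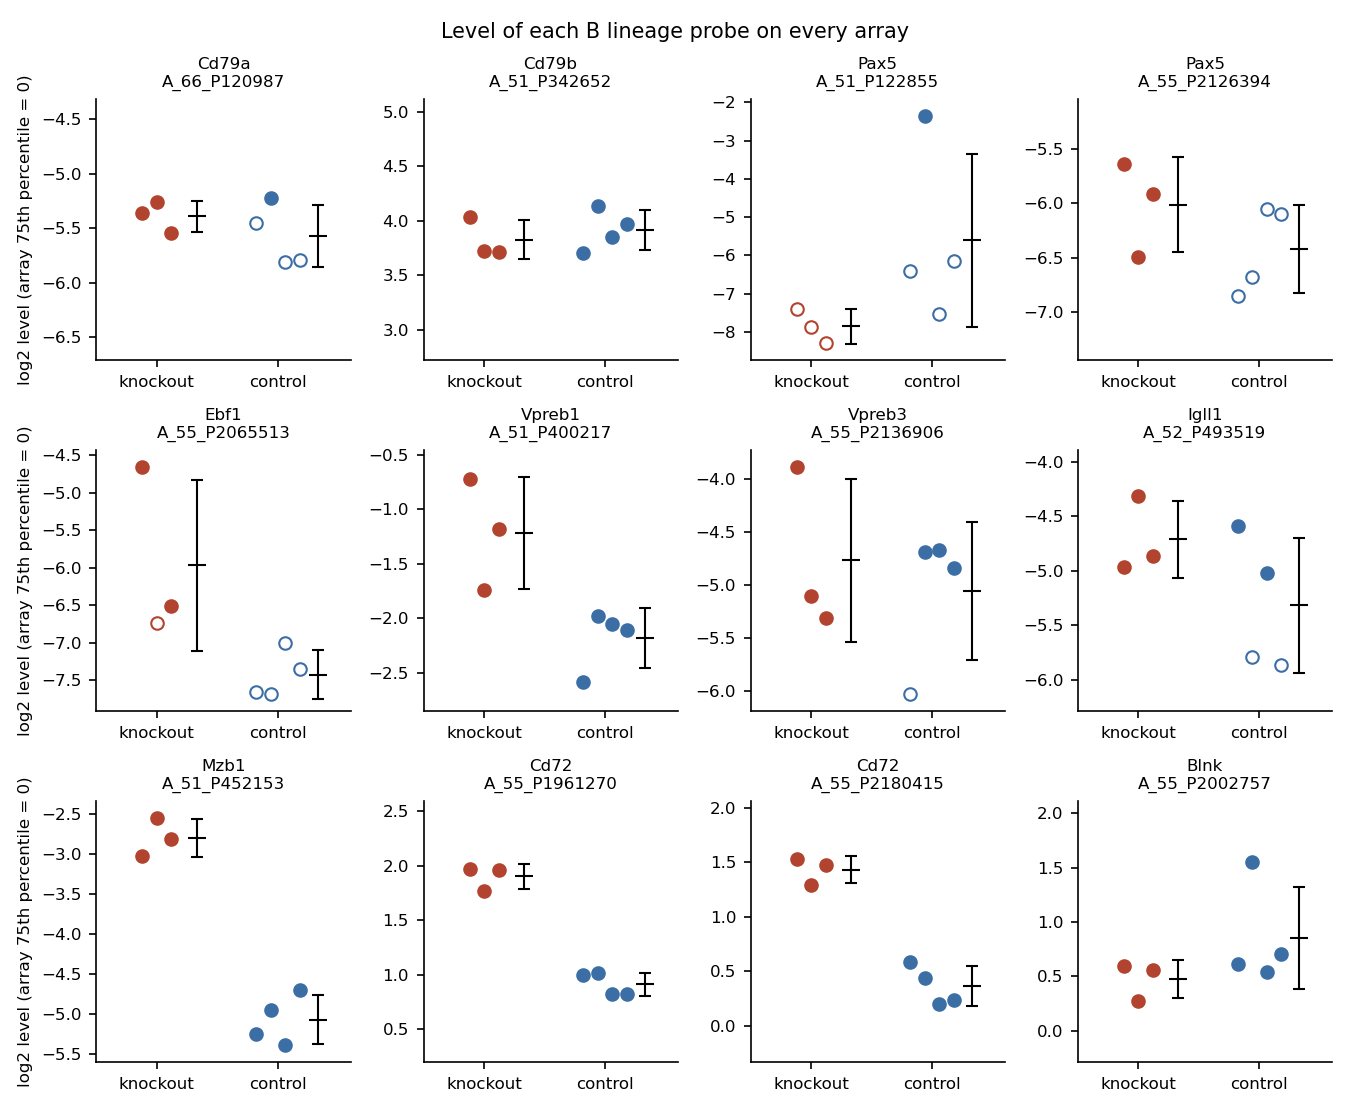
Level of each of the 12 probes on every array, in log2 units relative to the array's 75th percentile, with arrays labelled knockout in red on the left and controls in blue on the right. Filled points were well above background and open points were not; bars give mean ± SD (n = 3 and n = 4), and each panel has its own axis range. Mzb1, both Cd72 probes, Vpreb1 and Ebf1 have all red points above all blue points, and the Ebf1 points of the controls are all open.

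Mzb1 had the largest fold of the 10 tested probes. It read -3.03, -2.55 and -2.82 on replicates 1 to 3 labelled knockout, against -5.25, -4.95, -5.40 and -4.70 on control replicates 1 to 4. The lowest array labelled knockout thus stood well clear of the highest control. Mzb1 averaged -2.80 ± 0.24 (SD, n = 3) on arrays labelled knockout, against -5.07 ± 0.31 (SD, n = 4) for controls. It rose 4.84-fold (log2 2.27, SE 0.21, 95% confidence interval of the fold 3.46 to 6.76, limma adjusted p = 0.00174), and Mzb1 held place 112 among the tested probes by p.

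The array design carries the Mzb1 probe 10 times, which shows the measurement error within an array. On the arrays labelled knockout all 30 spots were well above background, and their SD within an array was 0.09 to 0.10 on the log2 scale. On the controls 25 of 40 spots were well above background, their SD within an array was 0.35 to 0.75, and 1 outlier spot of control replicate 2 was left out. The highest spot kept on the controls read -3.53, below the lowest spot on the arrays labelled knockout at -3.21. The outlier spot left out read -2.22, above the highest spot on the arrays labelled knockout at -2.45. With outlier spots kept the log2 difference was 2.21 (limma adjusted p = 0.00354). With normexp background correction the log2 difference was 1.44 (limma adjusted p = 0.000985). Mzb1 kept its call under all 20 alternatives tried (adjusted p from 0.00039 to 0.024).

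**Figure D2:**
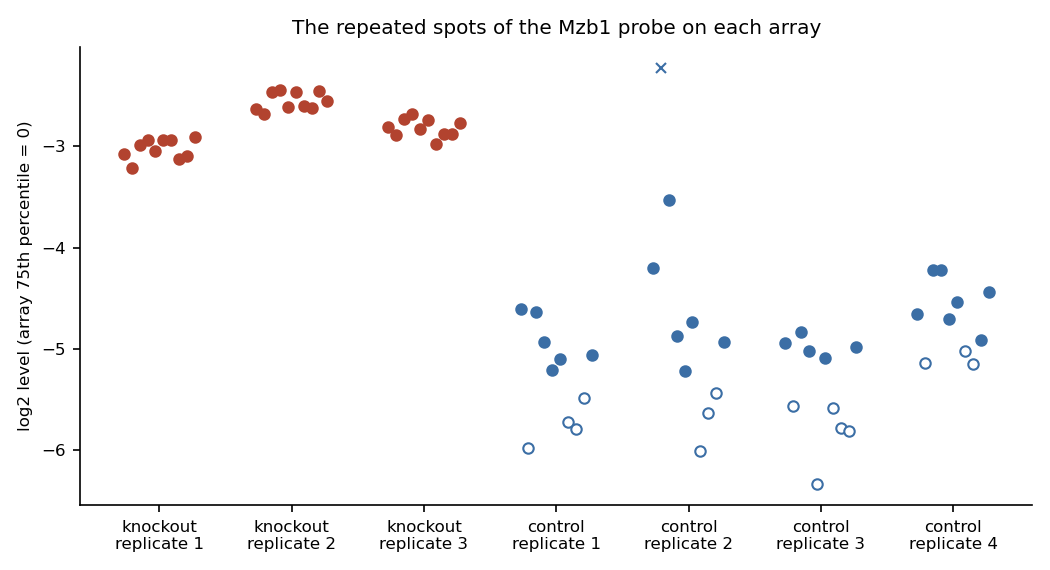
The 10 spots of the Mzb1 probe on each array, in log2 units relative to the array's 75th percentile, with arrays labelled knockout on the left and controls on the right. Filled points were well above background, open points were not, and the cross marks the outlier spot left out of control replicate 2. Spots of the arrays labelled knockout lie close together, between -3.21 and -2.45, above all control spots that were kept.

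Cd72 was read by a pair of probes designed to the same transcript accession, so they are not independent evidence. Probe A_55_P1961270 read 1.97, 1.77 and 1.96 on replicates 1 to 3 labelled knockout, against 1.00, 1.01, 0.82 and 0.82 on control replicates 1 to 4. Probe A_55_P2180415 read 1.53, 1.29 and 1.47 on the arrays labelled knockout, against 0.59, 0.44, 0.20 and 0.24 on the controls. On both probes the groups were separate and each group was tight. The fold was 1.99 (log2 0.99, SE 0.13, 95% confidence interval of the fold 1.61 to 2.46, limma adjusted p = 0.0118) on the first probe and 2.09 (log2 1.07, SE 0.15, interval 1.64 to 2.67, adjusted p = 0.0163) on the second.

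The size of the Cd72 difference moved little when arrays were left out, while its calls did not all hold. Without replicate 1 labelled knockout the log2 differences were 0.96 and 1.02 (limma adjusted p = 0.0678 and 0.0856), and without replicate 3 of that group 0.96 and 1.05 (adjusted p = 0.0891 and 0.105). The second probe also missed the threshold without control replicate 3 (log2 1.01, adjusted p = 0.0521). Over all alternatives the adjusted p ran from 0.00215 to 0.206 for the first probe and from 0.00493 to 0.192 for the second.

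**Figure D3:**
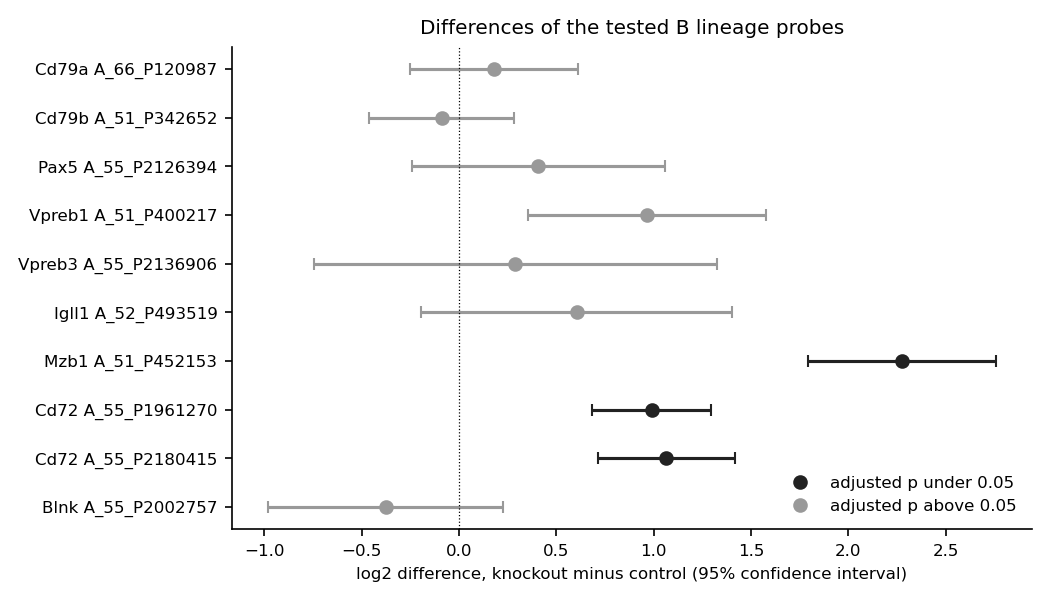
Log2 difference of each of the 10 tested probes, arrays labelled knockout minus controls, with its 95% confidence interval from the limma fit over all tested probes. Black marks an adjusted p under 0.05 and grey one above it. The intervals of Mzb1, both Cd72 probes and Vpreb1 lie above 0, and those of the other 6 probes include it. The values of Cd79a and Pax5 rest on control signals mostly or wholly not well above background.

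The sequences upstream of Cd72, which passed the test, Vpreb1, whose groups were separate without passing, and Blnk, whose groups overlapped, are shown to set promoters beside values. The 250 bases before the transcript start come from RefSeq on GRCm38.p6, given on the strand of the gene, for Cd72 (chr4:43454627-43454876, minus strand), Vpreb1 (chr16:16869256-16869505, minus strand) and Blnk (chr19:40994222-40994471, minus strand). Capitals mark matches on either strand to the E-box CANNTG, bound by E proteins such as Tcf3, to GAGGAAGT of the Ets factor PU.1, to the octamer ATTTGCAT of Oct factors, to CCCNNGGG of Ebf factors, or to a GATA factor site, meaning AGATAA and its variants with T as the first base or G as the last.
Cd72: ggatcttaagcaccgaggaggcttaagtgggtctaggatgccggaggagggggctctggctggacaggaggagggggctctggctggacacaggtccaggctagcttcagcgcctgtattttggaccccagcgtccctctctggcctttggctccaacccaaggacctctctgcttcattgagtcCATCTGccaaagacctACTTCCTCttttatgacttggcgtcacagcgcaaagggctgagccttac
Vpreb1: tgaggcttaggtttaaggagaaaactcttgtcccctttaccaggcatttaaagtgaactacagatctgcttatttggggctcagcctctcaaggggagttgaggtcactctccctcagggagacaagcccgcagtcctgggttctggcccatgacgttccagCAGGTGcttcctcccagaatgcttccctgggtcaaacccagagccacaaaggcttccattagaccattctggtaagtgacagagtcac
Blnk: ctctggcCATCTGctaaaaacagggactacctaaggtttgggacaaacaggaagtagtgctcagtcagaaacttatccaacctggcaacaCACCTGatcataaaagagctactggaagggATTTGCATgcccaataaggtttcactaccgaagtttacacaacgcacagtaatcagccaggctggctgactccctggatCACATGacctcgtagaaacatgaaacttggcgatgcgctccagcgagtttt

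The Cd72 window held 1 E-box at -65 and 1 PU.1 match at -49 relative to the start, the latter written on the opposite strand, and none of the other motifs. The Vpreb1 window held 1 E-box at -88 alone. The Blnk window held E-boxes at -243, -160 and -51 and an octamer at -130. Among all 32851 promoter windows of the same length, 66.2% held an E-box, 2.44% the PU.1 motif, 1.6% the octamer, 11.8% the Ebf motif and 26.5% a GATA motif. Of the 8 members with a window, Igll1 alone held an Ebf match (at -231), and Vpreb3 alone a GATA match (at -101) beside an octamer at -45. No marked motifs overlap in the windows printed. The motifs were chosen with the sequences in view, and a match or its lack describes only the letters of the window.

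No gene of the surrogate light chain or its relatives passed the threshold. Vpreb1, whose product takes the place of a light chain's variable part, read -0.73, -1.75 and -1.18 on replicates 1 to 3 labelled knockout, against -2.59, -1.98, -2.05 and -2.11 on control replicates 1 to 4. The groups did not overlap, although replicate 2 labelled knockout was close to control replicate 2. The difference was 1.95-fold (log2 0.96, SE 0.26, 95% confidence interval of the fold 1.28 to 2.98), with an unadjusted limma p of 0.00684 and an adjusted p of 0.194. Vpreb1 passed only with array weights (log2 1.11, adjusted p = 0.0302) and without a filter on dim probes (adjusted p = 0.0495), and the adjusted p ran from 0.0302 to 0.568 over its alternatives.

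Igll1, which encodes the constant part known as lambda 5, neighbours Vpreb1 on chromosome 16, with 0 annotated genes between them. It read -4.96, -4.31 and -4.86 on the arrays labelled knockout, against -4.59, -5.79, -5.02 and -5.87 on the controls. The groups overlapped, since control replicate 1 was above replicates 1 and 3 labelled knockout, and only control replicates 1 and 3 were well above background. Its difference was 1.52-fold (interval 0.875 to 2.64, limma adjusted p = 0.6), and its log2 difference of 0.60 was 0.05 with normexp background correction.

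Vpreb3, a relative of Vpreb1 that binds newly made heavy chains in the endoplasmic reticulum, read -3.89, -5.11 and -5.31 on the arrays labelled knockout, against -6.04, -4.69, -4.68 and -4.84 on the controls. Replicate 1 labelled knockout was the highest of all arrays, while replicates 2 and 3 lay below 3 of the controls. Control replicate 1 was not well above background. The fold was 1.22 with a wide interval of 0.596 to 2.51 (limma adjusted p = 0.86), and the log2 difference turned to -0.15 without replicate 1 labelled knockout and to -0.04 without control replicate 1 (adjusted p = 0.943 and 0.987).

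The signalling chains of the receptor did not pass. Cd79b, the beta chain, read 4.03, 3.72 and 3.71 on the arrays labelled knockout, against 3.70, 4.13, 3.85 and 3.97 on the controls. The groups covered the same range, and the fold was 0.94 with an interval of 0.727 to 1.22 (limma adjusted p = 0.883). That interval leaves out a change of 1.99-fold, the size measured for Cd72. Cd79a, the alpha chain that works only as a pair with Cd79b, read -5.36, -5.26 and -5.54 on the arrays labelled knockout, against -5.45, -5.22, -5.81 and -5.79 on the controls. It cleared the background on 3 of 3 arrays labelled knockout and, among controls, on replicate 2 alone. The groups overlapped (adjusted p = 0.774), and no fold is given, since 3 of the 4 controls were not well above background.

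Blnk, the adaptor that links Syk to phospholipase C gamma, read 0.60, 0.27 and 0.56 on the arrays labelled knockout, against 0.62, 1.55, 0.54 and 0.71 on the controls. Control replicate 2 stood apart from the other arrays, which lay close together. The fold was 0.77 (interval 0.507 to 1.17, limma adjusted p = 0.666), and without control replicate 2 the log2 difference of -0.38 was -0.14 (adjusted p = 0.761).

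The transcription factors were at or near background. Ebf1, which commits progenitors to the B lineage, read -4.66, -6.73 and -6.50 on the arrays labelled knockout, against -7.66, -7.69, -7.00 and -7.36 on the controls. It was well above background on replicates 1 and 3 labelled knockout and on 0 of 4 controls, so it was detected on too few arrays to be tested. No fold is given, because the dimmest signal counted as well above background on the controls (-5.51 ± 0.13, SD, n = 4) exceeds its mean of -5.97 ± 1.14 on the arrays labelled knockout (SD, n = 3).

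Pax5, which holds cells in the B lineage after Ebf1, was read by probes that disagreed. Probe A_55_P2126394 read -5.64, -6.49 and -5.91 on the arrays labelled knockout, against -6.85, -6.68, -6.05 and -6.10 on the controls, and was well above background on 3 of 3 and 0 of 4 arrays. The groups overlapped (limma adjusted p = 0.666), and no fold is given, since the controls have only a bound. The sign of the fitted difference turned with normexp background correction (log2 -0.03) and with each array's own floor (log2 -0.50). Probe A_51_P122855 read -7.41, -7.87 and -8.30 on the arrays labelled knockout, against -6.40, -2.36, -7.54 and -6.15 on the controls. It was well above background on control replicate 2 alone and was not tested.

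Within the groups, the members' highest values were spread unevenly over the arrays. Replicate 1 labelled knockout had the highest value of its group on 9 of the 12 probes and replicate 3 on 0, while over all tested probes these shares were 40.5% and 21.1%. The 12 include the untested probes of Ebf1 and Pax5 (A_51_P122855). Replicate 1 also had the brightest negative control spots of its group (-8.31, against -8.97 and -9.06 on replicates 2 and 3). The part of that background in the dim probes was not tested. Ebf1, Vpreb3 and Vpreb1 were among the 9, and Mzb1 and Igll1 were highest on replicate 2. In the controls, replicate 2 was highest on 6 of the 12 probes, against 31.5% of all tested probes. With no replicate known to share an animal or a culture day, these are descriptions of single arrays.

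Among other genes of the lineage, the receptor signalling pathway was without calls. Of 29 tested genes of pre-B and B cell receptor signalling, 0 were higher and 0 lower by limma (at an unadjusted p under 0.05, 2 and 2), and the median log2 difference was -0.07 against -0.05 over all 14552 tested genes. The share called over all genes was 1.08% higher and 0.893% lower, so 0 of 29 is near that background. Syk, the kinase that reads the phosphorylated chains of Cd79a and Cd79b, had a log2 difference of 0.20 (SE 0.15, adjusted p = 0.692), and Btk, the kinase downstream of Blnk, 0.19 (SE 0.17, adjusted p = 0.741). The widest differences in the list were those of Rasgrp3, an activator of Ras (log2 1.50, SE 0.54, adjusted p = 0.355), and Vav2, an exchange factor (log2 -0.66, SE 0.59, adjusted p = 0.735).

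Likewise, of 18 tested transcription factors of the B lineage other than the members, 0 were called in either direction by limma (1 higher and 1 lower at an unadjusted p under 0.05), with a median of 0.01. Tcf3, the E protein upstream of Ebf1, had a log2 difference of -0.14 (adjusted p = 0.817), and Foxo1, another factor of early B cells, 0.11 (adjusted p = 0.82). The widest were Spib, an Ets factor shared with plasmacytoid dendritic cells (log2 -0.49, SE 0.16, adjusted p = 0.296), and Pou2f2, an Oct factor (log2 0.39, SE 0.19, adjusted p = 0.521).

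Early lymphoid genes had the most calls in the upward direction among the 10 lists. Of 19 tested, 4 were higher (21.1%) and 1 lower (5.26%), with a median of 0.03. Over all tested genes these shares were 1.08% and 0.893%. The recombinase gene Rag1 rose 12-fold (log2 3.58, SE 0.28, limma adjusted p = 0.0008) and its partner Rag2 rose 4.1-fold (adjusted p = 0.00575). The adaptor gene Lax1 rose 9.13-fold (adjusted p = 0.00526), and Dntt, which adds bases at receptor gene joints, rose 4.63-fold, with 4.72 to 4.94 on the arrays labelled knockout against 2.44 to 2.85 on the controls (adjusted p = 0.000516). Il7r and Flt3, receptors that feed early B cell growth, had log2 differences of -0.32 and 0.03 (adjusted p = 0.643 and 0.966). Sdc1, a surface proteoglycan that also stands in the plasma cell list, fell 2.62-fold (adjusted p = 0.0389).

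Lists of later B cell stages held 1 call each, where 1.08% of all tested genes were called higher and 0.893% lower. Of 17 tested mature B cell genes, Ltb alone rose (3.41-fold, limma adjusted p = 0.00404), the gene of lymphotoxin beta, which T cells also express, and 0 fell (1 at an unadjusted p under 0.05). Of 12 plasma cell genes, 0 rose, also at an unadjusted p under 0.05, and Sdc1 fell. In that list Jchain, the joining chain of secreted antibody, had a log2 difference of 0.84 (SE 0.39, adjusted p = 0.507), and Hsp90b1, the chaperone with which Mzb1 works, -0.15 (SE 0.15, adjusted p = 0.765).

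**Figure D4:**
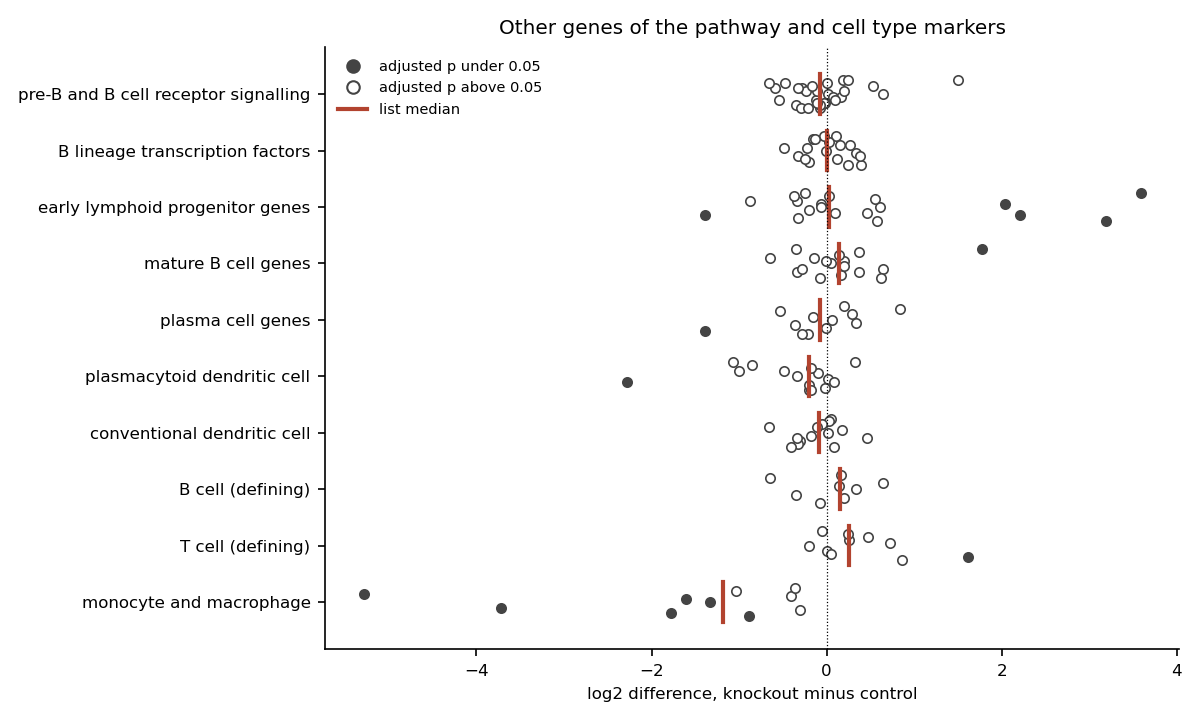
Log2 difference, arrays labelled knockout minus controls, of each tested gene of 5 pathway lists and 5 cell type marker lists, members left out and each gene read by its brightest tested probe. Filled points had an adjusted p under 0.05, open points did not, and the red line is the list median. Receptor signalling and transcription factor genes hold no filled points, and the early lymphoid list holds 4 filled points on the right.

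Markers of the cells that could have been present were set beside these results. Summed levels below add unlogged signals of different probes, so the brightest weigh most, and a sum does not measure an amount of cells. Over all tested genes, 1.08% were called higher and 0.893% lower by limma. Of the defining B cell markers, 9 of 10 had a matched probe and 8 were tested; 0 were called in either direction by limma (0 higher and 1 lower at an unadjusted p under 0.05), and their summed level relative to the 75th percentile was 1.71 to 2.33 on the arrays labelled knockout and 1.92 to 2.44 on the controls. Ms4a1, which encodes CD20, cleared the background on 2 of 3 arrays labelled knockout, against 0 of 4 controls, and was not tested. The part of these markers in the results for the members was not tested. Of 10 tested T cell markers, Lck, the kinase of the T cell receptor, was alone called higher by limma (3.07-fold, adjusted p = 0.000769). At an unadjusted p under 0.05, 2 were higher, and 0 were lower at either threshold. The receptor chain genes Cd3d, Cd3e and Cd3g had log2 differences of 0.01, -0.05 and 0.72 (adjusted p = 0.994, 0.93 and 0.744). Cd3g was well above background on only 2 of 4 controls. Of the 12 listed markers, 8 were well above background on all 7 arrays and 1, the receptor chain gene Cd247, on 0. The summed level of the tested markers was 14.2 to 19.5 on the arrays labelled knockout against 10.7 to 11.6 on the controls. That sum includes Lck, among the brighter of these probes, at log2 levels of 2.01 to 2.11 against 0.35 to 0.56. It is therefore not read as a rise of the list as a whole. The part of these markers in the Mzb1 and Cd72 differences was not tested.

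The samples are labelled dendritic cells, and all 14 tested markers of conventional and all 15 of plasmacytoid dendritic cells were well above background on all 7 arrays. The shares called over all tested genes, 1.08% higher and 0.893% lower, are the background for the counts that follow. Of the 14 conventional markers, 0 were called by limma (1 higher and 1 lower at an unadjusted p under 0.05), with a summed level of 283 to 329 on the arrays labelled knockout and 296 to 357 on the controls. Of 15 conventional markers with a matched probe, Xcr1 alone was too dim to be tested. Of the 15 plasmacytoid markers, 0 were higher and 1 was lower (0 higher and 5 lower at an unadjusted p under 0.05), with a median log2 difference of -0.20. The call was Clec10a, a lectin also found on macrophages, which was 4.86-fold lower (adjusted p = 0.000538). The summed level of the list was 252 to 309 on the arrays labelled knockout and 296 to 329 on the controls. Of 10 tested monocyte and macrophage markers, 6 were lower and 0 higher (also 0 at an unadjusted p under 0.05), with a summed level of 54.9 to 66.2 on the arrays labelled knockout and 81.2 to 96.6 on the controls. C1qc, a complement gene, was lower (limma adjusted p = 0.0351), with no fold given because only 1 of 3 arrays labelled knockout was well above background. Cd14, the lipopolysaccharide coreceptor, was 3.05-fold lower (adjusted p = 0.000764). The part of these lists in the results for the members was not tested.

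Across the 7 arrays, the genes whose centred profiles lay nearest to the called members were sought among 12825 genes well above background on all arrays. Nearest to Mzb1 were D630023F18Rik, at a root mean square difference of 0.18 log2 units, and Il17re, a receptor chain of the interleukin 17 family, at 0.23. Nearest to Cd72 were Enho (0.06) and Sytl1 (0.07) for probe A_55_P1961270, and Sytl1 (0.06) and Glis2 (0.10) for probe A_55_P2180415. These 5 genes were picked for matching profiles that already part the groups, so no test of them is given.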

How the data were processed

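The authors' deposited scanner files hold spot intensity. Per the file headers, the extraction software was Agilent Feature Extraction, version 10.7.3.1. Per the labels' protocols, RNA was amplified before Cy3 was coupled to it. The deposited series table holds log2 values centred on each probe's median; scaling and direction are not stated, but differences between arrays matched those of the scanner files, and it served as an alternative. Its column medians were 0 on 6 arrays and -0.02 on replicate 3 labelled knockout.

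From the processed signal, log2 values were taken and the 75th percentile of an array's spots, controls left out, subtracted, spots flagged as outliers were dropped and a probe's remaining spots averaged. Probes were named through RefSeq accessions (GRCm38.p6 table), which matched 26413 of 55681 probes (47.4%). Probes counted as well above background if at least 50% of their spots were, and were tested if so on at least 3 of 7 arrays with a value in both groups. The 34130 probes were fitted in R 4.3.3 with limma 3.58.1 (lmFit, eBayes) and no block, with Benjamini-Hochberg adjustment over all of them and a threshold of 0.05. A gene in a list was read by its brightest tested probe. The fit was tested on simulated data. Alternatives changed the background correction, the scaling, the filter, the floor, array weights and a replicate block, used the series table, or left out each array in turn. Gene name and mean signal columns were not among those used, so accessions and the median signal (normexp) were used in their place.

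The members, lists, named gene rule, motifs and alternatives were chosen with earlier results of these data known. The rule names every member, up to 4 genes per direction past the threshold in each list or up to 2 where none passes, and the nearest profiles. Cd247, Cd3d, Cd3e, Cd3g, C1qc, Cd14, Clec10a, Lck, Syk, Btk, Tcf3, Foxo1, Il7r, Flt3, Jchain, Hsp90b1, Ms4a1 and Xcr1 were named beyond it for their roles, with their values seen. Some genes of the marker lists are not reported here by name. The headers give 1 slide and 1 scan for the 7 arrays, which leaves nothing to block on; the number of arrays limits the precision. Arrays correlated between 0.98557 and 0.99447 within groups and none were identical.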

Additional observations from a re-analysis of the deposited data

Results flagged for a closer look

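Among the 12 member probes, the 4 control arrays held 1 value far from the others on 2 probes, by Dixon's criterion, which flags about 1 in 20 groups by chance. On Blnk, control replicate 2 read 1.55 while the other controls lay between 0.54 and 0.71. On Vpreb3, control replicate 1 read -6.04, where it was not well above background, while the other controls lay between -4.84 and -4.68. The 3 arrays labelled knockout are too few for this test.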

How the results depend on the processing

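Mzb1 kept its direction and call under all 20 alternatives, and the count of members lower stayed at 0. The 3 probes called higher numbered 1 to 3 when 1 array was left out, and 1, Mzb1, with the replicate block. There Cd72 had log2 differences of 0.96 and 1.02 (adjusted p = 0.206 and 0.192). Leaving out 1 array gave Cd72 0.95 to 1.05 and 1.01 to 1.14, and Vpreb3 -0.15 to 0.56. Replicate numbers shared only a number: deviations of same-numbered arrays correlated at -0.133, -0.142 and -0.0481. Vpreb1 passed with array weights (1.11) and without a filter (0.96). Signs turned for dim or unmoved probes: Cd79b with quantile normalization (0.008), Pax5 with normexp (-0.034) and each array's own floor (-0.50), Vpreb3 with normexp (-0.004), and Cd79a with normexp (-0.12) and the common floor (-0.005). Over all probes, 286 higher and 178 lower became 847 and 9267 without a filter, 757 and 558 with array weights, 81 and 71 with the replicate block, 84 to 248 and 95 to 162 leaving out 1 array. The lower count was 300 with normexp and 398 with each array's own floor, and the higher count was 186 with probes well above background on at least 50% of the arrays of both groups. With probes well above background on all arrays, 2 plasmacytoid markers were lower. These causes were not tested. Signal near background limits Ebf1, Pax5, Cd79a, Igll1 and the controls' Mzb1.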
